A study of Mus musculus with 10 samples.

Results

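The enzymes of glycolysis were examined in brain endothelial cells (BECs) of APP/PS1 mice, a model of Alzheimer's disease, and of control mice. A set of 10 genes was taken by symbol: hexokinase (Hk1, Hk2), phosphofructokinase (Pfkl, Pfkp), the enzyme that sets the level of its activator (Pfkfb3), aldolase (Aldoa), glyceraldehyde phosphate dehydrogenase (Gapdh), phosphoglycerate kinase (Pgk1), pyruvate kinase (Pkm) and lactate dehydrogenase (Ldha). Of these 10 genes, 9 had a row among the 14106 genes of the series, and Hk2 was not analysed here. RNA was sequenced from CD31+CD45- cells of the dissociated cortex of 1 year old female mice, in 5 libraries from mice carrying the APP/PS1 transgenes and 5 from age-matched wild type (WT) mice of the same C3H/BL6 background. The transgenes are carried in the germ line, so the comparison is of BECs that developed and aged in a transgenic mouse, not of a change made in the endothelium. How many mice went into each library is not given in the sources used here, and p values describe the spread between libraries. Libraries that share a replicate number, 1 control and 1 APP/PS1, form a pair. Cells were released from cortex by enzymes at body temperature, cleared of myelin with beads and enriched with CD31 beads.

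Glycolysis splits glucose into pyruvate in the cytosol and yields ATP without oxygen, and lactate dehydrogenase then turns pyruvate into lactate. Endothelial cells are known to make most of their ATP in this way although they lie next to oxygen-rich blood, and Pfkfb3 is known to drive glycolysis when vessels sprout. In the brain the endothelium also passes glucose from blood to tissue through the carrier Slc2a1. Hexokinase traps glucose in the cell, phosphofructokinase commits it to glycolysis, aldolase cuts the sugar into triose phosphates, and the enzymes from Gapdh to Pkm recover ATP.

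Many genes of this pathway share a regulatory sequence known from the response to low oxygen, the core ACGTG bound by the hypoxia-inducible factors, which lies within the E-box CACGTG read by Myc and related proteins. In the 250 bases before the RefSeq start sites (GRCm38.p6), ACGTG on either strand was present in 8 of 16 start sites of the 10 genes, covering 6 genes, compared with 16.6% of all 32851 start sites. Overlapping windows of Aldoa (chr7:126799179-126799428 and chr7:126799255-126799504) hold the same match, which was counted for each start site. GCGTG, the other form of the core, was present in 6 of the 16 start sites and in 28.2% of all, and CACGTG in 2 of the 16 and in 6.02% of all. On this count a CACGTG is also 2 matches of ACGTG, 1 on each strand. A match describes the letters only. The promoters of Ldha, Pfkfb3 and Aldoa are shown as examples of the 7 enzymes with their lowest difference in pair 2, as described below. That of Pgk1 is shown because it was not among those 7. All promoters shown hold ACGTG, while among the 7 enzymes Hk1, Pfkl and Pfkp held none and Pkm held 1. A link between the motif and the pair differences was not tested. For genes with several start sites, the window with most matches and then the lowest coordinates is printed, 5′ to 3′ on the strand of the gene, with matches of ACGTG or its complement in capitals.
Ldha (chr7:46845554-46845803, plus strand): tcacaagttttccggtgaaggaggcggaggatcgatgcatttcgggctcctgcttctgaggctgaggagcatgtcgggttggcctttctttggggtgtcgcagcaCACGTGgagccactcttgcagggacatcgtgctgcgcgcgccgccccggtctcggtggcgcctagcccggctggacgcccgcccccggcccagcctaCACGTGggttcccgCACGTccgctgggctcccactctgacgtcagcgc
Pfkfb3 (chr2:11502091-11502340, minus strand): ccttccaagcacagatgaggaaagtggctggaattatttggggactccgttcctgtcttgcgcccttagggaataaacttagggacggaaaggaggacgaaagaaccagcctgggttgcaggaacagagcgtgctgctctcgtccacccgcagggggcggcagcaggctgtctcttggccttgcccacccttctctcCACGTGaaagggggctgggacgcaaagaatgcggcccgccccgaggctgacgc
Aldoa (chr7:126799179-126799428, minus strand): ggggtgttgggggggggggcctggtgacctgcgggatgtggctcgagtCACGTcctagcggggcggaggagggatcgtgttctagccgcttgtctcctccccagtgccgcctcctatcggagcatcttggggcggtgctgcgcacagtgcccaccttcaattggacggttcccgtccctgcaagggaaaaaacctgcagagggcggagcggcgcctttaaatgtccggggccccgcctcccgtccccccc
Pgk1 (chrX:106186850-106187099, plus strand): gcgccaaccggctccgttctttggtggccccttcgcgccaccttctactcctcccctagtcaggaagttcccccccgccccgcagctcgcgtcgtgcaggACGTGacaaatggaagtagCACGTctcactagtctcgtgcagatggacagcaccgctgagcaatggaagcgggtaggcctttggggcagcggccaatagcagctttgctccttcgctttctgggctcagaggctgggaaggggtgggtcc
The Ldha window held 5 matches, including 2 copies of CACGTG, the Pfkfb3 window 2 from 1 copy of CACGTG, the Pgk1 window 2 and the Aldoa window 1. The windows of Pfkl, Pfkp, Gapdh and Hk1 held no ACGTG, while those of Pfkp and of the inner start site of Hk1 held 3 matches of GCGTG each.

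The libraries were checked as a whole before the enzymes were compared. Values are log2 CPM (CPM being the counts scaled to the size of each library, after the authors' batch correction), and each converted back to a whole adjusted count. Adjusted counts summed to between 22993426 and 126686149 in the control libraries and between 22371766 and 114525432 in the APP/PS1 libraries. Both lowest totals were those of pair 1, and every other library held at least 68813558. The 20 endothelial markers all had a row, and their summed level lay between 33717 and 35643 CPM in the control and 34190 and 36233 CPM in the APP/PS1 libraries. The batch correction had set the means of the pairs nearly equal: for the 9 enzymes the SD of the pair means lay between 0.0019 and 0.016 log2 units. An APP/PS1 value above the average therefore mirrors a control value below it, and the spread within a group and the spread of the pair differences are the same information.

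No difference between APP/PS1 and control BECs was detected for any of the 9 enzymes. At an adjusted p under 0.05 limma called 0 of the 9, and 0 of all 14106 genes (0%), where no adjusted p was smaller than 0.195. By the unadjusted p, 0 of the 9 enzymes lay under 0.05, compared with 8.03% of all genes (2.13% higher and 5.91% lower in APP/PS1). None of the 9 had the same direction in all 5 pairs, compared with 7.99% of all genes, and none had groups that did not overlap, compared with 7.88%. The log2 fold change (APP/PS1 minus control) was above 0 for 8 enzymes and below 0 for Pfkl, with a median of 0.022, but only 4 of 9 were above 0 when libraries were scaled by their total alone or centred on the endothelial markers, and 3 of 8 when they were set relative to Gapdh. The median over all genes was -0.0038 and that over the 3400 genes with a mean of at least 6 log2 CPM was 0.032. The exact two-sided sign-flip permutation p of the enzymes ranged from 0.125 to 1, where 5 pairs cannot give less than 0.0625. That no gene was called depends on the pair in the model, as 648 genes passed an adjusted p under 0.05 without it. The paper reports differentially expressed genes from limma after batch correction, with a further threshold on fold change. Its methods do not state a batch term in the model.

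**Figure D1:**
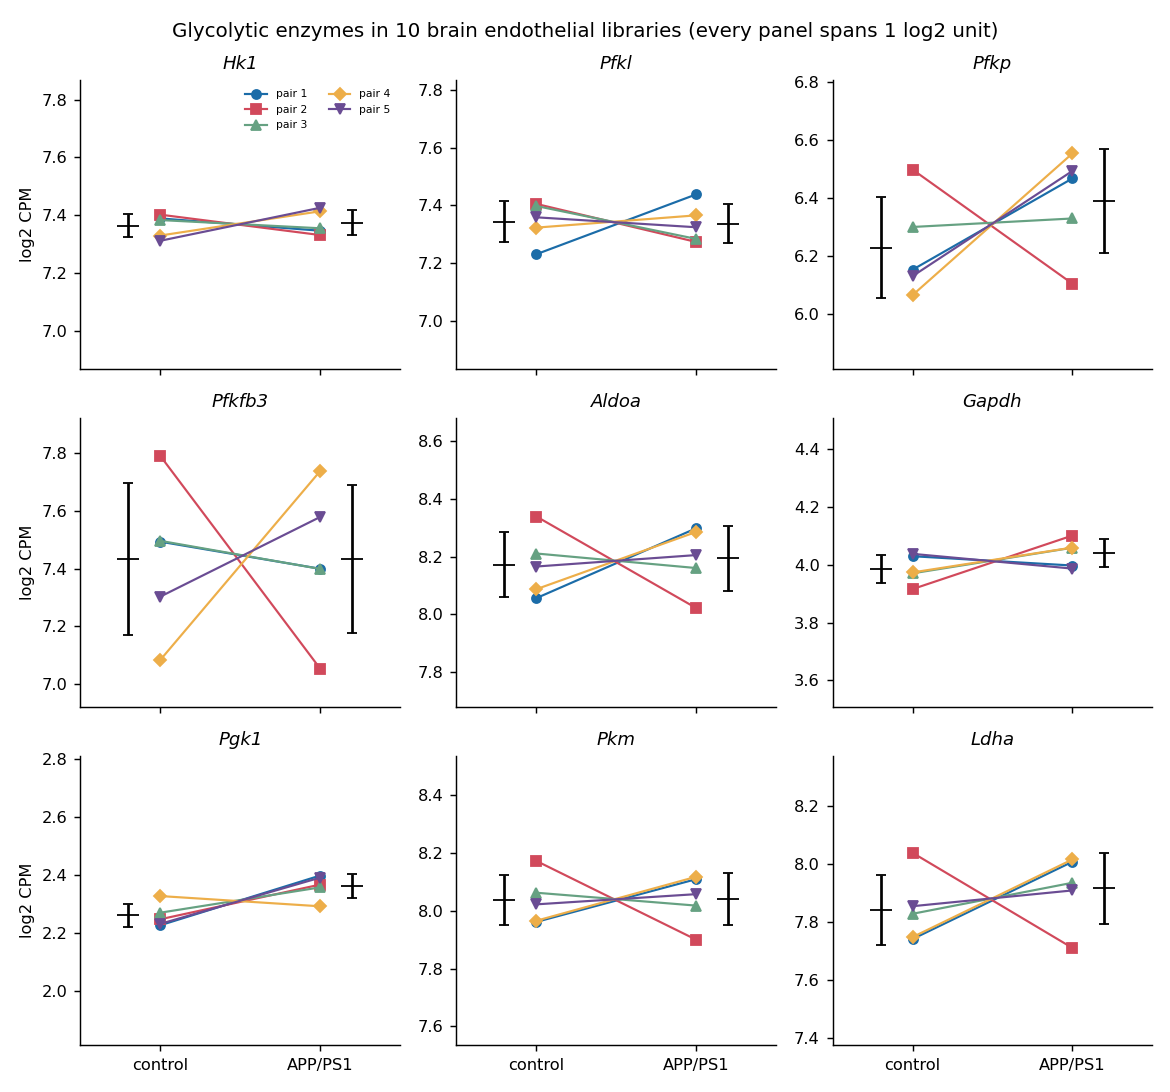
Level of 9 glycolytic enzymes (log2 CPM, vertical axis) in 5 control and 5 APP/PS1 BEC libraries, with a line joining the libraries of a pair and the mean ± SD of each group at the sides. The groups overlapped for all 9 genes, and the pairs crossed most widely for Pfkfb3.

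Hk1, the hexokinase that sits on mitochondria in most tissues, held its level within narrow bounds. The gene lies at chr10:62268855-62379908 on the minus strand (mm10). Its log2 CPM in control replicates 1 to 5 was 7.39, 7.40, 7.38, 7.33 and 7.31, and in APP/PS1 replicates 1 to 5 it was 7.35, 7.33, 7.35, 7.41 and 7.43. APP/PS1 was the lower library in pairs 1, 2 and 3 and the higher in pairs 4 and 5. The log2 fold change was 0.011 (SE 0.049, adjusted p = 0.970), and its 95% interval of -0.11 to 0.13 held linear folds from 0.926 to 1.10. The SD of the pair differences, 0.082, was larger than that of 12.8% of all genes.

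Phosphofructokinase is built from liver, muscle and platelet type subunits, encoded by Pfkl, Pfkm and Pfkp. Pfkl (chr10:77986947-78010083) had 7.23, 7.40, 7.40, 7.32 and 7.36 log2 CPM in the control libraries and 7.44, 7.27, 7.28, 7.37 and 7.32 in the APP/PS1 libraries. Its highest and its lowest value were those of pair 1, and the groups overlapped throughout. The log2 fold change was -0.0061 (SE 0.064, 95% interval -0.16 to 0.15, adjusted p = 0.987). Pfkp (chr13:6579768-6648777) was weaker and more variable, with 6.15, 6.50, 6.30, 6.06 and 6.13 log2 CPM in the control and 6.47, 6.10, 6.33, 6.55 and 6.49 in the APP/PS1 libraries. APP/PS1 was the higher library in 4 of 5 pairs, by 0.029 to 0.49, and the lower in pair 2 by 0.40. Its log2 fold change of 0.16 was the largest of the 9 enzymes in these values, with an SE of 0.14 and an adjusted p of 0.845. The interval of -0.18 to 0.50, or linear folds from 0.884 to 1.41, was wide. Leaving out 1 pair moved it between 0.079, without pair 4 (adjusted p = 0.937), and 0.30, without pair 2 (adjusted p = 0.283). The exons of Pfkp share 748 bases with Pitrm1 on the opposite strand, and strandedness of the counting is not given in the sources used here, so reads of the 2 genes cannot be told apart there.

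Pfkfb3 makes the bisphosphate of fructose that activates phosphofructokinase, and it had the widest pair differences of the 9 enzymes. At chr2:11471433-11554077, it measured 7.49, 7.79, 7.50, 7.08 and 7.30 log2 CPM in the control libraries and 7.40, 7.05, 7.40, 7.74 and 7.58 in the APP/PS1 libraries. The APP/PS1 library of pair 2 was 0.74 lower than its control and that of pair 4 was 0.65 higher, while pairs 1 and 3 differed by -0.094 and -0.097 and pair 5 by 0.28. These differences cancelled to a log2 fold change of 0.00043 (SE 0.20, adjusted p = 1.000). The 95% interval ran from -0.48 to 0.48, or folds from 0.716 to 1.40. The SD of the pair differences was 0.52 log2 units, larger than that of 89.6% of all genes. Leaving out pair 4 gave -0.16 and leaving out pair 2 gave 0.18. The adjusted counts behind these values lay between 3738 and 27326.

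The genes nearest to Pfkfb3 in their 5 pair differences, a search chosen after these values were seen, were Dusp10, Socs3, Tgif1, Bmp2 and Il4ra, among 10872 genes with a mean of at least 2 log2 CPM. Dusp10, a phosphatase of stress kinases, lay at a root mean square distance of 0.062 log2 units over the 5 pairs, with differences of -0.046, -0.64, -0.12, 0.59 and 0.23. Socs3, a feedback inhibitor of cytokine signalling, lay at 0.096, with -0.15, -0.54, -0.10, 0.62 and 0.23. The distances of Tgif1, Bmp2 and Il4ra were 0.11, 0.12 and 0.12. For Pgk1, the enzyme with the smallest p, the nearest genes were Gabpa, Pign, Bag5, Thoc2 and Nepro, at distances of 0.028 to 0.039.

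Aldoa was the strongest of the 9 enzymes per length. It lies at chr7:126795234-126800751 and measured 8.06, 8.34, 8.21, 8.09 and 8.17 log2 CPM in the control libraries and 8.30, 8.02, 8.16, 8.29 and 8.21 in the APP/PS1 libraries. The highest control and the lowest APP/PS1 library were those of pair 2. Aldoa had a log2 fold change of 0.022 (SE 0.092, 95% interval -0.20 to 0.25, adjusted p = 0.968).

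Gapdh and Pgk1 catalyse consecutive steps and had the lowest log2 CPM of the 9 enzymes. As described below, their values are uncertain as levels. The SD of their pair differences was 0.097 for Gapdh and 0.083 for Pgk1. Gapdh (chr6:125161715-125166467), often used as a reference gene, measured 4.03, 3.92, 3.97, 3.97 and 4.04 log2 CPM in the control and 4.00, 4.10, 4.06, 4.06 and 3.99 in the APP/PS1 libraries. APP/PS1 was higher in pairs 2, 3 and 4. This gave a log2 fold change of 0.055 (SE 0.053, 95% interval -0.075 to 0.19, adjusted p = 0.852). Pgk1 (chrX:106187100-106203699), which forms ATP from bisphosphoglycerate, measured 2.23, 2.25, 2.27, 2.33 and 2.23 log2 CPM in the control and 2.40, 2.37, 2.36, 2.29 and 2.39 in the APP/PS1 libraries. The highest control library overlapped with the lowest APP/PS1 library, both of pair 4, and in the other 4 pairs APP/PS1 was higher by 0.088 to 0.17. Pgk1 had a log2 fold change of 0.10 (SE 0.050, 95% interval -0.021 to 0.22, adjusted p = 0.719), which was the smallest p among the 9. Without the pair in the model its adjusted p was 0.0848.

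Pkm, which forms pyruvate and ATP, lies at chr9:59656368-59679375 and measured 7.96, 8.17, 8.06, 7.97 and 8.02 log2 CPM in the control libraries and 8.11, 7.90, 8.02, 8.12 and 8.06 in the APP/PS1 libraries. Pkm had a log2 fold change of 0.0036 (SE 0.076, 95% interval -0.18 to 0.19, adjusted p = 0.995). Counts per gene do not separate the splice forms of pyruvate kinase. The exons of Pkm share 767 bases with Gm49759 on the same strand. Smaller overlaps on the opposite strand were present for Hk1 (157 bases), Gapdh (68) and Aldoa (25). Ldha (chr7:46841475-46855627), which turns pyruvate into lactate, measured 7.74, 8.04, 7.83, 7.75 and 7.85 log2 CPM in the control and 8.01, 7.71, 7.94, 8.02 and 7.91 in the APP/PS1 libraries. APP/PS1 was higher in 4 of 5 pairs, by 0.055 to 0.27, and lower in pair 2 by 0.33. The log2 fold change was 0.074 (SE 0.099, 95% interval -0.17 to 0.32, adjusted p = 0.894). It was 0.025 without pair 1 and without pair 4 (adjusted p = 1.000 and 0.979) and 0.17 without pair 2 (adjusted p = 0.329).

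**Figure D2:**
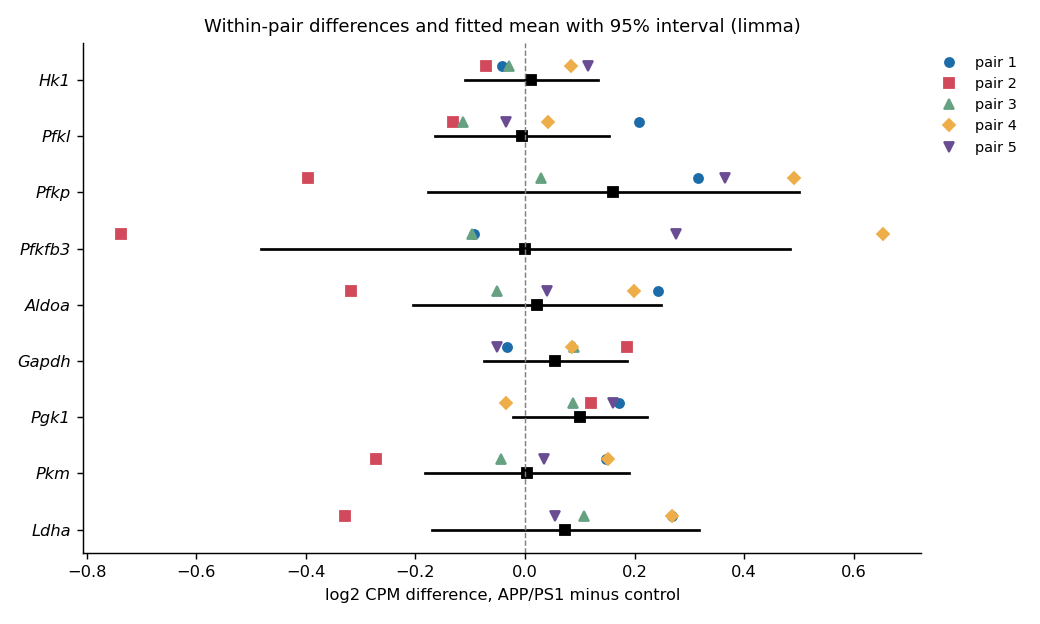
Difference in log2 CPM, APP/PS1 minus control, in each of the 5 pairs (coloured symbols) and the mean fitted by limma with its 95% interval (black square and line) for 9 glycolytic enzymes. All 9 intervals include 0, and the red squares of pair 2 lie lowest for 7 of the 9.

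Most of the enzymes had their lowest difference in the same pair. The median difference of the 9 enzymes was 0.17 in pair 1, -0.27 in pair 2, -0.028 in pair 3, 0.15 in pair 4 and 0.055 in pair 5. APP/PS1 was the higher library for 6 enzymes in pair 1, 2 in pair 2, 4 in pair 3, 8 in pair 4 and 7 in pair 5. Pair 2 gave the lowest of the 5 differences for 7 of the 9 enzymes (77.8%), all but Gapdh and Pgk1, whereas pair 2 was the lowest for 25.3% of all genes and for 46.4% of the 3400 genes with a mean of at least 6 log2 CPM. Genes at that level were higher in APP/PS1 for 35.4% in pair 2 and for 64.0% to 66.5% in the other pairs, so the direction of pair 2 was shared with other well-expressed genes. Their median difference in pair 2 was -0.048, smaller than that of the enzymes. The 7 enzymes were among these 3400 genes, while Gapdh and Pgk1 lay under a mean of 6 log2 CPM. With 1 pair left out at a time, the median log2 fold change of the 9 enzymes was 0.025, 0.096, 0.041, -0.0068 and 0.018 without pairs 1 to 5. Pair 2 held the lowest differences, so higher values without it follow from leaving it out. Without it Pfkp and Ldha had an unadjusted p under 0.05, as did 14.2% of all genes, and no enzyme passed an adjusted p under 0.05 with any pair left out. Genes of a pathway are not independent replicates, and no test was made of the count.

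Several gene lists moved over the same pairs, and their part in the values of the enzymes was not tested. The 15 tested genes of 16 that respond to tissue dissociation, led by Fos, had a median difference of -0.056, -0.028, 0.074, 0.50 and 0.22 in pairs 1 to 5, with 15 of 15 higher in APP/PS1 in pair 4. Their median log2 fold change was 0.10, with all 15 above 0 (10 to 15 under the other scalings). Of the 15 genes, 2 were higher in all 5 pairs, compared with 2.99% of all genes. At an unadjusted p under 0.05, 1 of the 15 was higher, compared with 2.13% of all genes, and none passed an adjusted p under 0.05. Their summed level lay between 23152 and 28889 CPM in the control and 26488 and 32868 CPM in the APP/PS1 libraries. The 20 endothelial markers, led by Flt1, had pair medians of 0.054, -0.046, 0.11, 0.053 and -0.014 and a median log2 fold change of 0.028.

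Markers of several other cell types had larger log2 fold changes than the enzymes. For the counts below, 5.91% of all genes were lower in APP/PS1 at an unadjusted p under 0.05. Oligodendrocyte markers, 10 of 12 with a row and led by Cnp, had a median log2 fold change of -1.48, with all 10 lower and 7 at an unadjusted p under 0.05, and pair medians of -2.70, 0.65, -1.34, -1.98 and -1.55. Their sum lay between 41.9 and 279 CPM in the control and 33.5 and 142 CPM in the APP/PS1 libraries, and Mag and Ermn were at 0 adjusted counts in at least 1 library. Astrocyte markers, 10 of 10, had a median of -0.74, with 9 lower and 4 at an unadjusted p under 0.05, and pair medians of -2.29, 0.15, -1.31, -0.74 and -0.11. The strongest of them, Gja1, was the 1 that was higher, by 0.27 (adjusted p = 0.714). Their sum lay between 292 and 335 CPM in the control and 285 and 334 CPM in the APP/PS1 libraries, of which Gja1 and Fgfr3 made up 72.4% to 92.4%. The other 8 summed to between 44.3 and 92.4 CPM in the control and 21.9 and 52.5 CPM in the APP/PS1 libraries. Mural cell markers, 11 of 11 and led by Rgs5, had a median of -0.77, with all 11 lower and 10 at an unadjusted p under 0.05, pair medians of -1.61, -0.27, -0.66, -1.45 and 0.028, and summed to between 626 and 1053 CPM in the control and 326 and 629 CPM in the APP/PS1 libraries. Medians of the oligodendrocyte and astrocyte markers were above 0 in pair 2 alone, while that of the mural markers was below 0 there and above 0 in pair 5. Neuron markers (6 of 12 with a row) had a median of -0.36 and erythroid markers (4 of 7, led by Hbb-bs) -1.16, with pair medians of -0.67, 0.11, -0.51, -0.48 and -0.51 for the former and -1.58, -3.33, -3.98, 0.83 and 2.35 for the latter. Their sums lay between 104 and 127 and between 29.3 and 241 CPM in the control libraries, and between 104 and 129 and between 14.2 and 153 CPM in the APP/PS1 libraries. Stmn2, the strongest neuron marker, differed by 0.016 (adjusted p = 0.979) and made up 84.1% to 90.2% of the neuron sum, and the other 5, all lower, summed to between 14.5 and 17.8 CPM in the control and 11.1 and 13.9 CPM in the APP/PS1 libraries. None of these markers passed an adjusted p under 0.05. In bulk RNA, fewer cells of a type and less RNA per cell cannot be told apart.

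**Figure D3:**
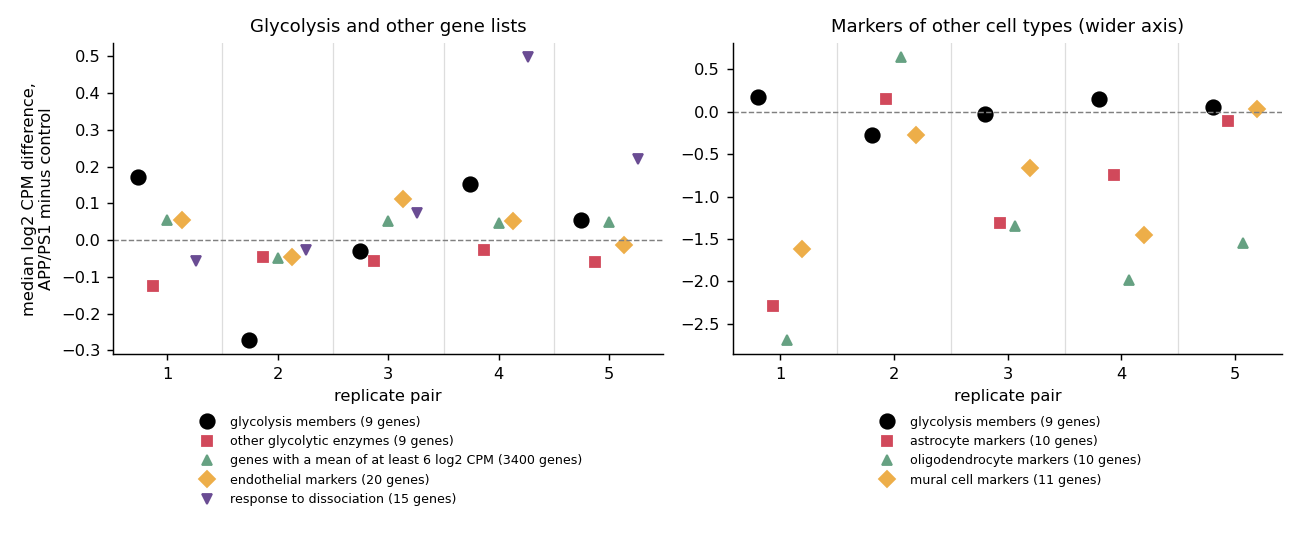
Median difference in log2 CPM, APP/PS1 minus control (vertical axis), of the 9 glycolytic enzymes (black) and of other gene lists (colours) in each of the 5 pairs, with a wider axis on the right. The enzymes lie lowest in pair 2, at -0.27, where the medians of the oligodendrocyte and astrocyte markers lie above 0 and that of the mural markers at -0.27.

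Levels of the enzymes could be compared with each other after division by the exon length of each gene. Aldoa stood at 100.1 CPM per kb (SD 7.34 over 10 libraries), Ldha at 71.3 (SD 6.0), Pkm at 52.6 (SD 3.01), Pfkl at 24.3 (SD 1.09), Pfkfb3 at 23.2 (SD 3.85), Hk1 at 19.4 (SD 0.527), Pfkp at 5.96 (SD 0.769), Gapdh at 3.90 (SD 0.147) and Pgk1 at 2.20 (SD 0.101). The order held in 10 of 10 libraries except between Pfkl and Pfkfb3, where Pfkl was above in 6, and between Pfkfb3 and Hk1, where Pfkfb3 was above in 8. Since the batch correction had set the pair means nearly equal, these counts and SDs leave out the spread between pairs. Aldoa lay above 97.7% of all genes per length, while Gapdh lay above 42.3% and Pgk1 above 30.0%, both under the median of all genes of 5.24 CPM per kb. The order depends on the length used, as the exons of some genes add up to far more than their principal transcript (13.4 against 4.14 kb for Pfkp, 4.13 against 1.42 kb for Gapdh). Per kb of the principal transcript, a length added after these values were seen, Hk1 stood at 42.9 CPM per kb and above Pfkfb3 (37.8) in 8 of 10 libraries. Pfkl, at 43.5, was above Hk1 in 5. Gapdh stood at 11.4 and Pgk1 at 2.70, with a median of all genes of 7.70, so Gapdh was then above the median and Pgk1 below it.

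Gapdh and Pgk1 were also the listed enzymes whose sequence recurs most in the genome annotation. Of the 50-base stretches in the principal transcript, 82.5% for Gapdh and 68.0% for Pgk1 were also present in transcripts of other annotated genes, with Gm7336 and Pgk1-rs7 holding the most. The share was 34.4% for Pkm, 17.1% for Ldha and for Pfkp, 13.9% for Aldoa, and below 1% for Hk1, Pfkl and Pfkfb3. Over 18 glycolytic enzymes, the 5 with at least 40% of shared stretches (Gapdh, Pgk1, Eno1, Eno1b and Pgam1) had levels between 1.61 and 3.90 CPM per kb, and the other 13 between 1.19 and 100.1 with a median of 23.2. Per kb of the principal transcript the 5 lay between 1.79 and 11.4 and the other 13 between 1.40 and 192.8 with a median of 42.9. Reads that match several genes are left out by HTSeq-count unless it is set otherwise, and the read length and that setting are not given in the sources used here. The part of shared sequence in these levels was not tested, so the values of Gapdh, Pgk1, Eno1, Eno1b and Pgam1 are uncertain as levels.

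**Figure D4:**
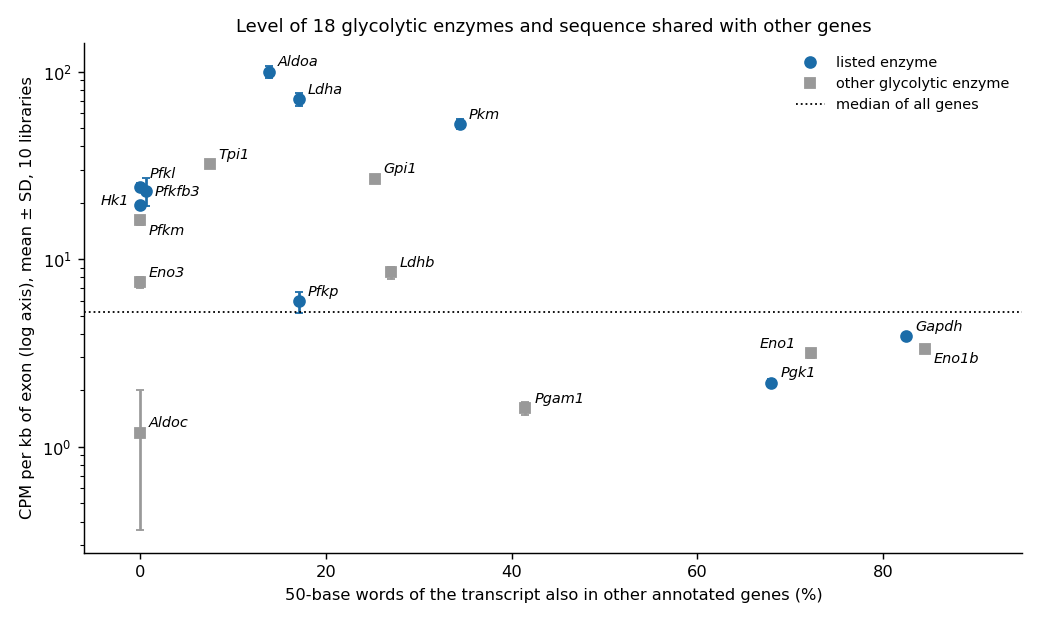
Level per length (CPM per kb on a log axis, mean ± SD of 10 libraries) of 18 glycolytic enzymes against the percentage of 50-base stretches of their principal transcript that are also present in other annotated genes. The 5 enzymes at 40% or more lie between 1.61 and 3.90, under the dotted median of all genes at 5.24, while per kb of the principal transcript Gapdh (11.4) and Eno1 (8.38) lie above the median of 7.70.

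Isozymes of the same step were compared as shares per length. Of phosphofructokinase transcripts, Pfkl made up 52.4% ± 1.44 (SD, n = 5) in the control and 52.4% ± 1.31 in the APP/PS1 libraries, Pfkm 35.5% ± 2.04 and 34.0% ± 1.95, and Pfkp 12.1% ± 1.23 and 13.6% ± 1.29. These shares depend on the length used: per kb of the principal transcript Pfkp made up 22.4% ± 1.91 and 24.8% ± 2.00, close to Pfkm at 23.7% ± 1.70 and 22.3% ± 1.64, and Pfkl 53.9% ± 1.33 and 52.9% ± 1.25. The ratio of 2 genes between groups does not depend on it. The log2 ratio of Pfkp to Pfkl was 0.17 higher in APP/PS1, with 4 of 5 pairs higher. The two-sided exact permutation test gave p = 0.312 (adjusted over 3 ratios 0.312). With 5 pairs this test cannot give a p under 0.0625 for any of the 3 ratios. It could therefore not separate the groups at the threshold used for the genes, and no conclusion is drawn from its p values. Of aldolase transcripts, Aldoa made up 98.2% ± 0.814 in the control and 99.3% ± 0.581 in the APP/PS1 libraries and Aldoc the rest. The log2 ratio of Aldoc, an isozyme of astrocytes and neurons in brain, to Aldoa was 1.62 log2 units lower in APP/PS1 at a mean of -7.44 against -5.82, lower in 4 of 5 pairs, with an exact permutation p of 0.188 (adjusted 0.281). Of lactate dehydrogenase, Ldha, the subunit that favours lactate, made up 88.5% ± 0.957 and 90.0% ± 0.900. The log2 ratio of Ldhb to Ldha averaged -4.03 in the control and -4.25 in the APP/PS1 libraries, lower in 4 of 5 pairs, with an exact permutation p of 0.188 (adjusted 0.281).

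The other genes of glucose use showed the same absence of called differences. Of 91 genes in 7 lists, 72 had a row. In APP/PS1, 25 of them were higher and 47 lower (10 to 25 higher under the other scalings), and 0 passed an adjusted p under 0.05. The 2 genes Pdk2 and Slc2a3, both lower, had an unadjusted p under 0.05, where 5.91% of all genes were lower at that level. A single direction in all 5 pairs was seen for 1 gene higher (2.99% of all genes) and 2 lower (5% of all genes). The list medians lay between -0.046 and 0.047.

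Of the other glycolytic enzymes, 9 of 19 had a row, 3 higher and 6 lower, with a median of -0.038, and the lactate dehydrogenase subunit Ldhb was the 1 with a common direction. Ldhb measured 3.80, 3.81, 3.94, 3.77 and 3.75 log2 CPM in the control and 3.68, 3.67, 3.53, 3.72 and 3.73 in the APP/PS1 libraries. The groups did not overlap, as for 7.88% of all genes, with a log2 fold change of -0.15 (SE 0.070, adjusted p = 0.688). Aldoc measured 3.01, 0.97, 2.79, 2.77 and 2.21 log2 CPM in the control and -0.79, 2.28, 0.53, 0.40 and 1.38 in the APP/PS1 libraries. The log2 fold change was -1.59 (SE 0.72, adjusted p = 0.681). The lowest library held 12 adjusted counts of Aldoc. The pair difference of Aldoc was positive in pair 2 and negative in the other 4 pairs. The astrocyte, oligodendrocyte and neuron marker medians given above all have these signs, and the source of the Aldoc difference was not tested. The triose phosphate isomerase Tpi1 differed by 0.023, the enolase Eno1 by -0.082 and the muscle type subunit Pfkm by -0.065, with adjusted p of 0.959, 0.838 and 0.877. The most strongly expressed of the list per kb of exon was Tpi1. Per kb of the principal transcript it was the glycolytic enzyme Gpi1, at 60.1 CPM against 55.2 for Tpi1.

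The enzymes that make or remove the activator of phosphofructokinase or that branch to bisphosphoglycerate (5 of 8 with a row, 3 higher, 2 lower) differed by -0.15 for Pfkfb4, 0.053 for Tigar, 0.061 for Minpp1 and -0.075 for Bpgm, with adjusted p between 0.817 and 0.905. Of the genes that bring pyruvate into mitochondria, 13 of 14 had a row and 12 were lower, by a median of -0.046. Pdk2, a kinase that shuts off pyruvate dehydrogenase, had a log2 fold change of -0.16 (SE 0.061, adjusted p = 0.609) and was lower in 4 of 5 pairs. Pdk4, of the same kinase family, was at -0.19, the pyruvate carrier subunit Mpc1 at -0.11, the phosphatase Pdp2 at -0.080 and the dehydrogenase subunit Pdha1 at -0.037, with adjusted p between 0.809 and 0.885. In the pentose phosphate pathway, 10 of 10 genes had a row, 4 higher and 6 lower, with a median of -0.023. The entry enzyme G6pdx differed by -0.048, Pgls by 0.044, Rpia by -0.081, Tkt by -0.046 and Taldo1 by -0.034, with adjusted p between 0.812 and 0.906.

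Among 7 carriers of 9 with a row, 3 were higher and 4 lower. The barrier glucose carrier Slc2a1 stood at 12.79 log2 CPM in the control and 12.73 in the APP/PS1 libraries, with a log2 fold change of -0.059 (adjusted p = 0.902), a gene added outside the naming rule. The neuronal glucose carrier Slc2a3 was weak, at 1.01, 0.93, 0.98, 0.55 and 0.72 log2 CPM in the control and -0.093, 0.0057, -0.045, 0.38 and 0.24 in the APP/PS1 libraries. It was lower in all 5 pairs and its groups did not overlap, the latter seen for 7.88% of all genes. The log2 fold change was -0.74 (SE 0.15, 95% interval -1.12 to -0.36, adjusted p = 0.441), the smallest p of the 72 genes. Its lowest library held 20 adjusted counts. The lactate carrier Slc16a1 measured 9.68, 9.62, 9.70, 9.79 and 9.78 log2 CPM in the control and 9.90, 9.96, 9.89, 9.80 and 9.80 in the APP/PS1 libraries. It was higher in all 5 pairs, by as little as 0.0091 in pair 4, and its groups did not overlap either. The log2 fold change was 0.15 (SE 0.065, adjusted p = 0.637). The fat and muscle glucose carrier Slc2a4 was at -0.61, the lactate exporter Slc16a3 at 0.21 and Bsg, the chaperone of the lactate carriers and the most strongly expressed per length, at -0.0059, with adjusted p between 0.641 and 0.984.

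Of the genes of glycogen metabolism, 11 of 13 had a row, 3 higher and 8 lower, with a median of -0.020. Glycogen synthase Gys1 differed by -0.19, the phosphorylase Pygl by -0.11, Pgm1 by -0.10, and the kinases Gsk3a and Gsk3b by 0.042 and 0.096, with adjusted p between 0.653 and 0.914. Regulators of glycolytic genes had 17 of 18 rows, 8 higher and 9 lower, with a median of -0.024. Epas1, the hypoxia-inducible factor typical of endothelium, differed by 0.11 and the flow-responsive Klf2 by 0.16, while Myc and the energy-sensing kinase subunit Prkaa2 both differed by -0.31. The adjusted p of these 4 lay between 0.666 and 0.817, and Hif1a, outside the naming rule and added because its motif is shown above, was at -0.026.

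**Figure D5:**
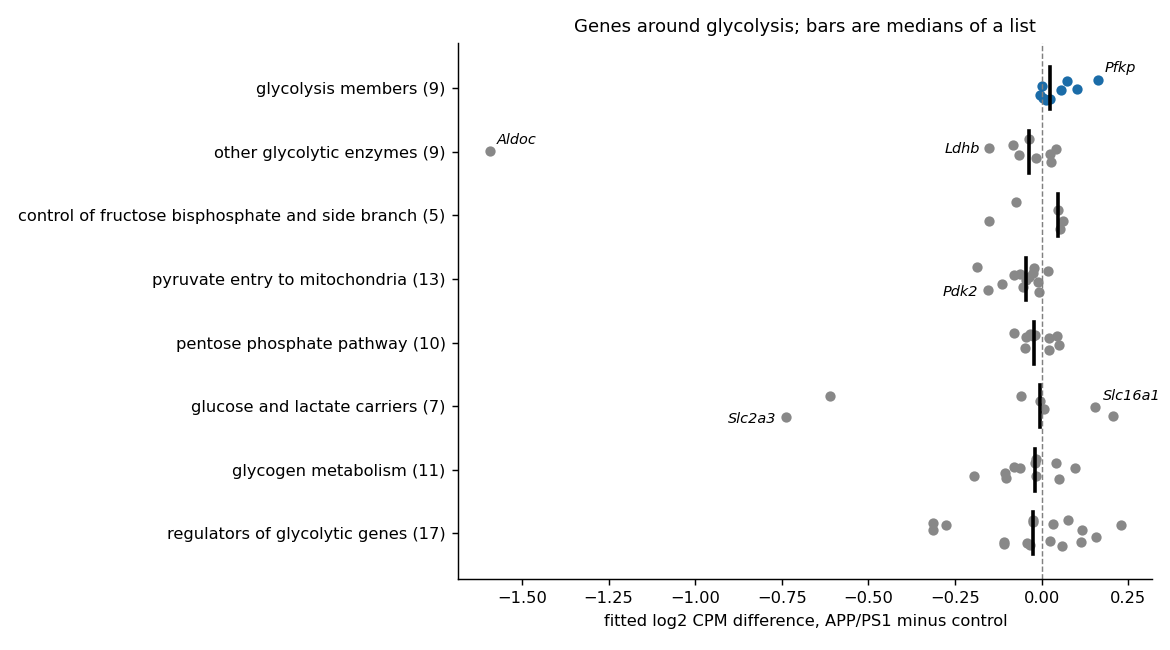
Log2 fold change (APP/PS1 minus control) of the 9 glycolytic enzymes (blue) and of 72 other genes of glucose use (grey) by list, with the number of genes in brackets and the median of each list as a bar. The 9 enzymes lie between -0.0061 and 0.16, and Aldoc at -1.59 and Slc2a3 at -0.74 lie farthest from 0.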

How the data were processed

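Bulk RNA sequencing of BECs from 5 APP/PS1 and 5 control libraries was analysed. Per the labels and the paper's methods, the authors used STAR for alignment to mm10, HTSeq for gene counts and edgeR for a filter on weak genes and log CPM, and corrected for batch. Versions of these tools are not given in the sources used here. The authors deposited log2 CPM of 14106 genes. In each library 100% of values converted back to whole adjusted counts (within 0.01) with a prior count of 3. Since batch correction changed the counts, neither a counting error nor a count model was used as the main result.

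Symbols, positions and exon lengths came from GENCODE M21, which matched all 14106 genes. The linear model of limma 3.58.1 (R 4.3.3) was fitted to all genes with genotype and the 5 replicate pairs as terms, leaving 4 residual degrees of freedom with a prior of 1.80, with Benjamini-Hochberg adjustment over all genes. The fit was tested on simulated data. Pairs follow the study's batches of 1 library per group, while the labels put replicates 4 and 5 in a common batch, which was tried as an alternative. Within a pair, deviations from the group means had rank correlations between -0.999 and -0.989 over 10873 genes, a sign that the equal batch means fix. A log2 fold change is on the scale of log2 CPM with its prior count, which understates changes of weak genes. CPM per kb is the rescaled adjusted count divided by the exon length. Isozyme ratios were tested with an exact sign-flip permutation test; a planned ratio of Hk2 to Hk1 was not computed. The 9 enzymes and the gene lists were chosen with earlier results of these data known. Named genes were all members, from each other pathway list up to 4 genes with the smallest unadjusted p and the most strongly expressed per length, for the member with the smallest p the 5 genes nearest in pair differences, and the strongest of each marker list. A list of immune cell markers is not reported here. Promoters came from the RefSeq table of GRCm38.p6, in which all 10 genes matched. The alternatives were other scalings, batch terms, prior count, filter, limma-voom weights, a trend in eBayes, a threshold of 0.10 and each pair left out.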

Additional observations from a re-analysis of the deposited data

How the results depend on the processing

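No enzyme passed an adjusted p under 0.05 under any of the 15 alternatives run, nor at a threshold of 0.10. Without the replicate pair as a block, Pgk1 alone of the 9 had an unadjusted p under 0.05 (1 enzyme, log2 fold change 0.10, adjusted p 0.0848), 648 genes of the series passed an adjusted p under 0.05 and 3049 an unadjusted one, because the batch means already removed are then not counted. The exact permutation tests without the block gave adjusted p of 0.103 for the Pfkp to Pfkl ratio and 0.0833 for both other ratios. With the 4 batches of the labels, 1 enzyme, again Pgk1, had an unadjusted p under 0.05 and 1 gene of the series an adjusted one. Relative to Gapdh, 1 gene of the series passed an adjusted p under 0.05. Among the 9 enzymes the block changed no other call. Calls of single genes outside the 9 without the block are not given here.

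Scaling turned the sign of 4 enzymes whose values lie near 0. With library size alone, Hk1 was at -0.026, Pfkfb3 at -0.037, Aldoa at -0.015 and Pkm at -0.034. Centred on endothelial markers they were at -0.015, -0.026, -0.0038 and -0.023, and relative to Gapdh at -0.044, -0.055, -0.033 and -0.052. With limma-voom, Pfkfb3 was at -0.0059. These scalings moved the median of all genes from -0.0038 to -0.041, -0.030 and -0.059. The median of the other glycolytic enzymes was -0.075 with library size alone and -0.093 relative to Gapdh, and that of the pentose phosphate pathway was -0.078 relative to Gapdh.

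Leaving out each pair in turn moved Hk1 between -0.014 and 0.032, Pfkl between -0.059 and 0.025, Pfkfb3 between -0.16 and 0.18, Aldoa between -0.032 and 0.11 and Pkm between -0.033 and 0.073, all across 0. Hk1 was at -0.0068 without pair 4. Pfkl was at 0.021 without pair 3 and 0.00099 without pair 5. Pfkfb3 was at -0.068 without pair 5. Aldoa was at -0.021 without pair 4. Pkm was at -0.032 without pair 1 and -0.0043 without pair 5. Pfkp stayed between 0.079 and 0.30, Gapdh between 0.023 and 0.082, Pgk1 between 0.083 and 0.13 and Ldha between 0.025 and 0.17. Enzymes with an unadjusted p under 0.05 numbered 0 to 2, the 2 being Pfkp and Ldha without pair 2 and the 1 without pair 4 being Pgk1. Genes of the series with an adjusted p under 0.05 numbered 0 to 5, and with an unadjusted one 748 to 2008, the highest without pair 2. The median of the 9 enzymes lay between -0.0068 and 0.096. The ratios kept their direction, with Pfkp to Pfkl between 0.097 and 0.27, Aldoc to Aldoa between -2.43 and -1.01 and Ldhb to Ldha between -0.33 and -0.15.

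With 5 pairs, the 95% intervals still held log2 fold changes from -0.18 to 0.50 for Pfkp and from -0.48 to 0.48 for Pfkfb3. Most levels and shares per length moved with the principal transcript length, several as given beside them. Per kb of that transcript, Aldoa stood at 192.8 CPM, Ldha at 133.7, Pkm at 108.2 and Pfkp at 19.3. Ldha then made up 92.3% of lactate dehydrogenase transcripts in the control and 93.4% in the APP/PS1 libraries. No value among 18 groups of 5 libraries stood apart by Dixon's test.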
